A study of Mus musculus with 8 samples.

Results

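The connexin genes Gja1, Gja3, Gja4, Gja5, Gjb2 and Gjc1 were followed across lung fibroblast subtypes. They are 6 of the 20 connexin genes on the array and of 24474 named genes. All probes whose gene name in the scanner files was one of these symbols or a synonym were taken, which gave 8 probes: 3 for Gja5 and 1 for each of the other 5 genes. All 6 genes passed the filter on dim probes, with 7 of the 8 probes. The 6 were chosen by their signals on these same arrays, with no threshold recorded, so every level of and difference in the 6 counts as used for the choice. Their levels and differences are therefore given as a description. Where the fit over all genes, or another setting of it, called a member, the call is printed as a count that supports nothing.

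The samples were 4 groups of 2 RNA preparations from lungs of adult female C57BL/6 mice, 12 to 16 weeks old, with no transgene or treatment named in the labels. Pulmonary single cells (arrays Pu1 and Pu2) are the dispersed lung before the fibroblast sort, and the other groups are its sorted subsets: A-type fibroblasts (A1, A2), B-type fibroblasts (B1, B2) and C-type fibroblasts (C1, C2). Sorting relied on antibodies to Pdgfra, Thy-1 and Sca-1 and on a lineage panel of TER119, E-Cadherin, CD45, Lyve-1, CD146 and CD31. The combination that defines each type and the number of mice behind a sample are not given in the sources used here. Each sample held 50000 cells, and 10 ng of its RNA was amplified and hybridised, labelled with Cy3, to a one-colour Agilent array.

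Connexins are the membrane proteins of gap junctions. A ring of connexins forms a hemichannel, hemichannels of neighbouring cells dock, and the pore lets ions and small molecules pass between the cytoplasms. The Gja1 product (connexin 43) is the most widely found connexin and is typical of fibroblasts, smooth muscle and many epithelia. The products of Gja4 (connexin 37) and Gja5 (connexin 40) are known from endothelium, above all of arteries, and connexin 40 also from atrial and conducting heart muscle. Gjc1 encodes connexin 45, known from smooth muscle and the early heart. Gjb2 encodes connexin 26 of epithelia, which is known for its part in hearing, and Gja3 encodes connexin 46 of lens fibres.

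The probes are shown because each level below is that of a single stretch of transcript. The first 30 of the 60 bases of each are given, 5′ to 3′. Capitals mark a piece that lies within the first 50 bases after the RefSeq transcription start of Gja5.
Gja1: ctacacattaactcagaacttgtattctga
Gja3: aaaccacccagtcaaacactgcaatggcca
Gja4: acccagcgccaagttgactttcgagcctcc
Gja5 probe 1: ccgacactggcactaagactctctgttctg
Gja5 probe 2: CAAATAACAGTGGGCAGTTGAACAGCAGCC
Gja5 probe 3: tgtgtgctttatctgtaaatattgattgca
Gjb2: caagttgaaccattaccactatgccttatg
Gjc1: gttgtgtcttccagatccagagaagaactg
In mm9, the build of the array's annotation, the probes of Gja5 lie at chr3:96857349-96857408, chr3:96836336-96836395 and chr3:96881280-96881339 on the plus strand. Probe 2 lies 21.0 kb upstream and probe 3 lies 23.9 kb downstream of probe 1. Of the 60 bases of probe 2, 39 match bases 12 to 50 after the RefSeq start, so probe 2 reads the first exon of a Gja5 transcript. The probe of Gja1 lies at chr10:56109814-56109873 on the plus strand. Those of Gja3 (chr14:57654750-57654809), Gja4 (chr4:126988848-126988907), Gjb2 (chr14:57717629-57717688) and Gjc1 (chr11:102661010-102661069) lie on the minus strand. The exon or UTR read by the other 7 probes was not determined here.

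Levels are log2 processed signals minus the 75th percentile of the same array, called scaled log2 signals below, so that 0 is the signal which 75% of the array's probes do not exceed. They compare one probe between arrays and set no order between genes. A difference is that of the group means, with the standard error (SE) of one limma fit of all 8 arrays to 17732 genes. Over all spots but controls, outlier spots included, the 75th percentile of unscaled signal ran from 113 to 260. The percentile used for scaling was taken over averaged probes without outlier spots. By the scanner's call, 54.6% to 68.7% of spots were well above background. Arrays A1 and A2, like B1 and B2, correlated at r = 0.985 over genes, C1 and C2 at 0.946, and Pu1 and Pu2 at 0.915. More than 2-fold apart were 31.4% of genes between Pu1 and Pu2 and 20.9% between C1 and C2, against 5.2% and 5.52% in the A and B groups. Pu1 and Pu2 share one slide and all 6 fibroblast arrays another, so slide and cell group cannot be told apart in any comparison with pulmonary single cells. Comparisons between fibroblast types lie within one slide.

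All 6 genes of the fibroblast list (Pdgfra, Col1a1, Col1a2, Dcn, Lum and Tcf21) were well above background on all fibroblast arrays. Their summed signal was 1540% to 1720% of the mean of Pu1 and Pu2 in A, 1600% to 1810% in B and 801% to 858% in C. Col1a1, Col1a2, Dcn and Lum were lowest in C, while Pdgfra and Tcf21 were highest there. The sort genes Thy1 and Ly6a (Sca-1) had means of -0.24 and 6.22 in A, 4.82 and 6.71 in B and 0.17 and 1.79 in C. The C arrays differed in both: Thy1 read 1.89 on C1 and -1.56 on C2, and Ly6a 2.96 and 0.61. Lyve1 and Cdh1, which encode lineage antigens of the sort, were well above background on none of the 6 fibroblast arrays. Of the other lineage genes, Ptprc (CD45) was well above background on all 6, at 16.7% to 24.5% of its mean in pulmonary single cells, and Pecam1 (CD31) on 5 of 6, at 0.998% to 2.03%, by group. The sum of 6 leukocyte genes, Ptprc among them, was 0.279% to 0.326% in A, 0.277% to 0.282% in B and 0.337% to 0.409% in C. Tyrobp, Chil3 and Lyz2 of that list were below 1% in each type. Cd79a stood at 5.68% to 6.14% and Cd3e at 8.98% to 9.96%, by group. Mcam, which encodes the lineage antigen CD146, had group means from 8.58 to 8.88 in all 4 groups. In sorted bulk RNA, fewer cells of a type and less RNA per cell cannot be told apart.

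Gja5 had the widest range of the 6 genes between fibroblast types: it was highest in C-type fibroblasts, lower in pulmonary single cells and A-type fibroblasts, and lowest in B-type fibroblasts. Its brightest probe, probe 1, read 2.69 and 3.25 in pulmonary single cells, 1.90 and 2.13 in A-type, -1.06 and -0.70 in B-type and 3.81 and 4.62 in C-type fibroblasts. No 2 groups overlapped, and the largest gap between replicates was 0.81, in the C group. The means were 4.22 ± 0.57 (SD, n = 2) in C, 2.97 ± 0.39 in pulmonary single cells, 2.02 ± 0.16 in A and -0.88 ± 0.25 in B. B-type signal was thus 34.2-fold below C-type signal (log2 difference -5.10 ± 0.38, SE).

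A-type signal of Gja5 stood between the other types. It was 7.46-fold above B (2.90 ± 0.38) and 4.58-fold below C (-2.20 ± 0.38). Against pulmonary single cells, Gja5 was 2.37-fold higher in C (1.24 ± 0.38), 1.93-fold lower in A (-0.95 ± 0.38) and 14.4-fold lower in B (-3.85 ± 0.38). These 3 differences share Pu1 and Pu2 as controls. Between neighbours in the order, the nearest arrays were 0.56 apart from C to pulmonary single cells and from there to A, and 2.60 apart from A to B.

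Probe 2, in the first exon of Gja5, gave the same order of groups. It read 0.30 and -0.98 in pulmonary single cells, -1.61 and -1.67 in A, -2.31 and -2.66 in B and 0.61 and 1.26 in C. The groups did not overlap here either, although Pu1 and Pu2 were 1.28 apart. C-type signal was 10.7-fold above B on this probe, against 34.2-fold on probe 1, and 5.95-fold above A. A-type signal was 1.80-fold above B on probe 2 and 7.46-fold on probe 1, so the probes differ most in the A to B step; with the mean of both probes standing for Gja5, A minus B was 1.87 in place of 2.90. Probe 3 was well above background only on Pu2 and A2, with values from -5.70 to -3.35 over all 8 arrays. It was not kept and carried no comparison.

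**Figure D1:**
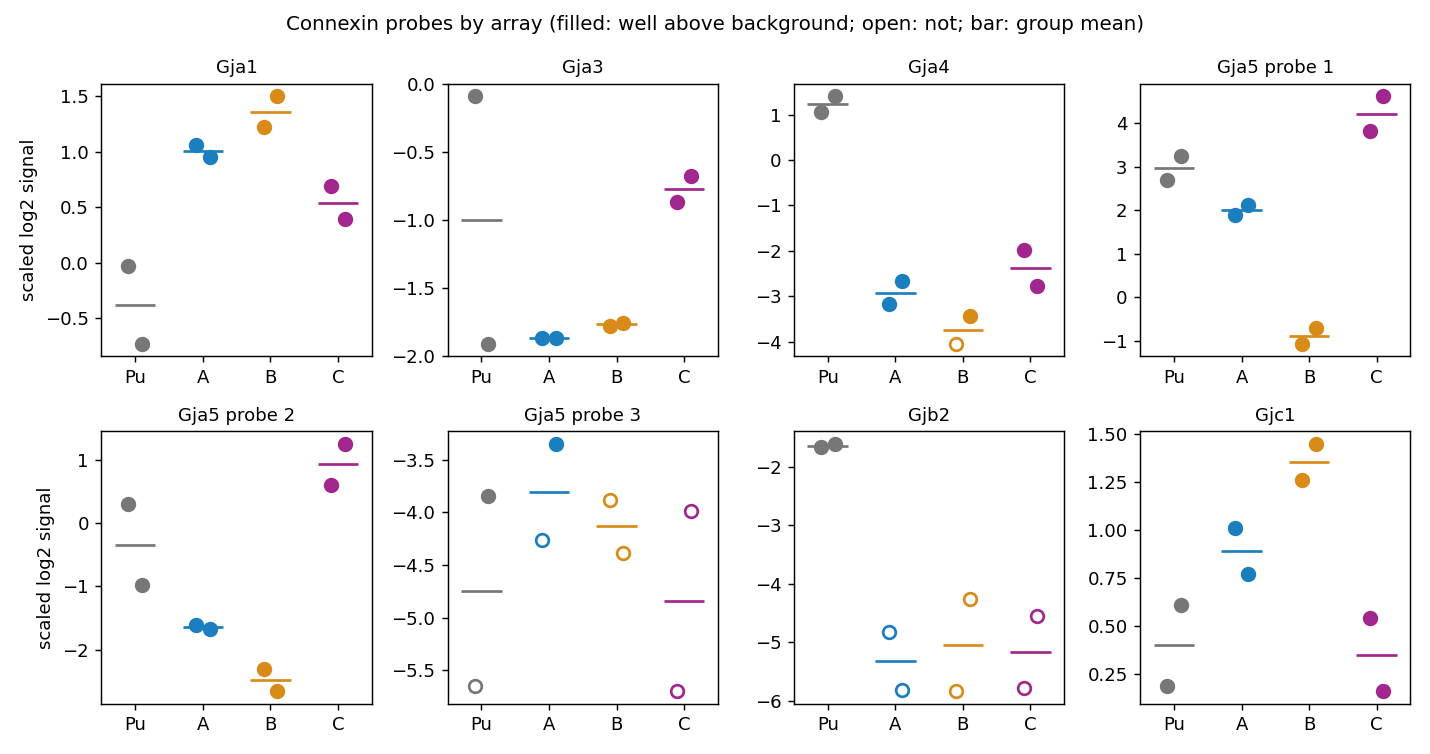
Scaled log2 signal (y axis, a separate range in each panel) of the 8 connexin probes on the 8 arrays, by group (x axis: Pu, pulmonary single cells; A, B and C, fibroblast types). Each point is 1 array, filled where well above background, and the bar is the mean of 2 arrays; Gja5 probes 1 and 2 are highest in C and lowest in B, and all 6 fibroblast points of Gjb2 are open.

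Gja4, whose product pairs with that of Gja5 in arterial endothelium, was low in all 3 fibroblast types. It read 1.06 and 1.41 in pulmonary single cells, -3.17 and -2.67 in A, -4.04 and -3.44 in B and -1.98 and -2.77 in C. Array B1 was the one array on which it was not well above background. Both Pu arrays were above all fibroblast arrays, and the nearest 2 were 3.04 apart. The fold lower was 17.8 in A (-4.16 ± 0.40), 31.6 in B (-4.98 ± 0.40) and 12.2 in C (-3.61 ± 0.40). With normexp background correction, which pulls low signals towards a common floor, these differences were -2.40, -2.53 and -2.13. Among the types, B lay below C (2.58-fold, -1.37 ± 0.40), A and C overlapped, and B minus C was -0.40 with normexp.

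Gja4 and Gja5, both known from arterial endothelium, thus differed against pulmonary single cells. Gja4 was lower in A, B and C, while Gja5 was lower in A and B and higher in C. In percent of the mean of Pu1 and Pu2, Gja4 stood at 2.55% to 10.7% on the 6 fibroblast arrays. Gja5 stood at 6.01% and 7.70% in B, at 46.9% and 55.0% in A, and at 176% and 308% in C. The summed signal of 10 blood endothelial genes (Pecam1, Cdh5, Cldn5, Kdr, Tek, Tie1, Emcn, Vwf, Egfl7 and Esam) was 5.42% to 5.48% in A, 6.87% to 7.53% in B and 4.51% to 4.80% in C on the same scale. The order of these sums rested on 1 gene: Tek stood at 33.9%, 76.8% and 6.79% of pulmonary single cells in A, B and C. Without Tek, a sum chosen after seeing the data, the other 9 genes gave 4.08% to 4.41%, 3.93% to 4.57% and 4.50% to 4.63%. Kdr, Tek and Vwf were well above background on all 6 fibroblast arrays and Pecam1 and Cldn5 on 5 of 6. Kdr stood at 36.6%, 36.2% and 38.6% in A, B and C, while Cdh5 and Tie1 were below 1% in each type. Tie1 and Emcn were above background on no A or C array, and Esam on no B array.

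The 5 genes of arterial endothelium (Efnb2, Sox17, Hey1, Dll4 and Bmx) summed to 14.0% to 14.2% in A, 12.0% to 13.0% in B and 11.9% to 13.8% in C. Sox17, a transcription factor of arterial endothelium, was above background on 0 of the 6 fibroblast arrays, Dll4 on 4 of 6, and Efnb2, Hey1 and Bmx on all 6. Bmx had the type order of Gja5, at 32.7%, 24.1% and 44.8% of pulmonary single cells in A, B and C, and Dll4 stood at 14.4%, 14.4% and 29.1%. Efnb2 (6.11%, 4.4% and 4.29%) and Hey1 (23.2%, 23.8% and 17.1%) were instead lowest in C, so the list had no common order of types. Lists of other cell types also differed between the fibroblast types. Pericyte genes (Cspg4, Rgs5, Kcnj8, Abcc9 and Notch3) summed to 547% to 580% in A, 478% to 507% in B and 266% to 342% in C. Kcnj8 stood at 1600%, 1080% and 1210% in A, B and C, and Abcc9 at 1370%, 1260% and 658%. Cspg4 (53.6%, 52.6% and 107%) was highest in C and Notch3 (17.6%, 7.4% and 8.21%) in A, while Rgs5 was above background on 0 of the 6 fibroblast arrays. The sum of 5 alveolar type 1 genes (Hopx, Ager, Aqp5, Rtkn2 and Akap5) was 11.7% to 12.8% in C against 4.69% to 5.97% over the A and B arrays, with Rtkn2 above background on none of the 6. Ager, Aqp5 and Akap5 were highest in C, but Hopx was highest in B (6.07%, 9.23% and 6.14% in A, B and C). The sum of 5 smooth muscle genes (Acta2, Myh11, Tagln, Cnn1 and Des) was 41.9% to 45.1% in B and 56.7% to 63.9% over the A and C arrays, with all 5 above background in each type. Acta2 was highest in A (99.6%, 49.6% and 48.7% in A, B and C). Des (27.9%, 13.7% and 102%), Myh11, Tagln and Cnn1 were highest in C. The sum of 5 alveolar type 2 genes (Sftpc, Sftpa1, Sftpb, Sftpd and Lamp3) was 3.37% to 5.89% in C and 2.07% to 3.42% over A and B. Lamp3 stood at 47.9%, 69.0% and 62.1% in A, B and C. Sftpc (0.368%, 0.183% and 2.53%), Sftpa1, Sftpb and Sftpd were highest in C. The sum of 4 mesothelial genes was 7.71% to 9.62% in A, 6.34% to 28.4% in B and 26.8% to 28.6% in C. Of these, Upk1b was above background among the types in C alone (-0.29, against -4.86 in A and -5.52 in B), Wt1 in A and B, and Msln and Upk3b in none. The part of all these in the Gja5 result was not tested.

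**Figure D2:**
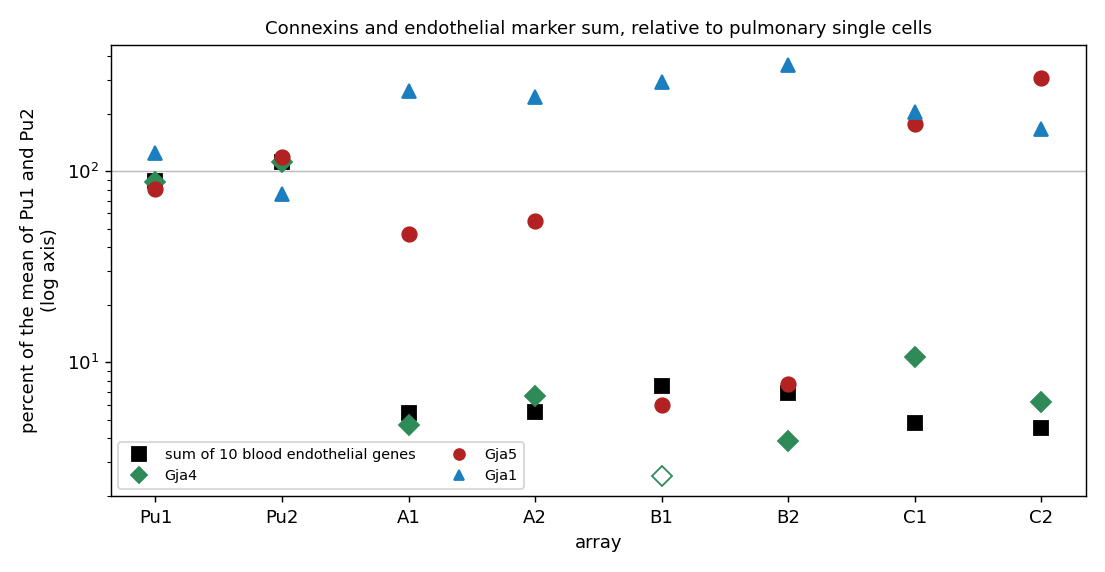
Signal of Gja5, Gja4 and Gja1 and the summed signal of 10 blood endothelial genes on each of the 8 arrays (x axis), in percent of the mean of Pu1 and Pu2 (y axis, log scale; an open point is not well above background). Gja4 and the endothelial sum lie at or below 10.7% in all fibroblast arrays, Gja5 lies with them only in B, and Gja1 lies at 166% or more in all 6.

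Gja1, the connexin typical of fibroblasts, was higher in all 3 types than in pulmonary single cells. The mean of its 10 spots per array read -0.03 and -0.73 in pulmonary single cells, 1.06 and 0.95 in A, 1.22 and 1.5 in B and 0.69 and 0.39 in C. The order was B (1.36 ± 0.20, SD, n = 2), A (1.01 ± 0.08), C (0.54 ± 0.21) and pulmonary single cells (-0.38 ± 0.50), with no overlap between neighbours. The smallest step, from A1 to B1, was 0.16, less than the replicate gap of 0.29 in B. Against pulmonary single cells the signal was 2.61-fold higher in A (1.38 ± 0.33), 3.34-fold in B (1.74 ± 0.33) and 1.89-fold in C (0.92 ± 0.33). The order of types was the reverse of that of Gja5: B was 1.76-fold above C (0.82 ± 0.33), where Gja5 was 34.2-fold below. Gja1 and Gja5 correlated at r = -0.66 over the 8 arrays, which share slides within groups.

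Gjc1 showed the same order of fibroblast types as Gja1. It read 0.19 and 0.61 in pulmonary single cells, 1.01 and 0.77 in A, 1.26 and 1.45 in B and 0.54 and 0.16 in C. Pulmonary single cells and C overlapped, A stood above both and B above A. B was 1.94-fold above pulmonary single cells (0.96 ± 0.31) and 2.01-fold above C (1.0 ± 0.31). A minus pulmonary single cells was 0.49 ± 0.31 and C minus pulmonary single cells -0.05 ± 0.31. These values against pulmonary single cells depended on the scaling: over the 4 other scalings tried they ran from 0.20 to 0.82 in A, 0.63 to 1.30 in B and -0.36 to 0.35 in C.

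Gjb2 was measured above background in pulmonary single cells only. It read -1.67 and -1.61 there, and -4.83 and -5.81 in A, -5.84 and -4.27 in B and -5.79 and -4.55 in C, where 0 of 6 values were well above background. Only a bound on the fold can therefore be given, taking for each dim array the lowest signal that was well above background on it where that exceeds the probe's own. Gjb2 was at least 5.23-fold lower in A (fitted difference -3.68 ± 0.64), at least 4.76-fold in B (-3.42 ± 0.64) and at least 3.94-fold in C (-3.53 ± 0.64). With normexp these differences were -0.88, -0.77 and -0.43. No order among the fibroblast types can be read from values below background. The sum of 5 genes of airway epithelium was 0.24% to 0.803% of the mean of Pu1 and Pu2 on the fibroblast arrays. Foxj1 and Scgb3a2 were above background on none of these, as was the epithelial sort antigen gene Cdh1, while Scgb1a1 was on all 6, Cyp2f2 on 5 and Krt5 on 2. The sum did not describe each gene. Scgb1a1 stood at 0.237%, 0.292% and 0.669% in A, B and C, and Cyp2f2 at 6.85%, 3.38% and 0.424%. Krt5, mostly near background, stood at 68.5%, 180% and 50.6%. The part of epithelial RNA in the Gjb2 result was not tested.

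Gja3, the lens connexin, was well above background on every array, but Pu1 and Pu2 did not agree. It read -0.09 and -1.91 in pulmonary single cells, -1.87 and -1.87 in A, -1.78 and -1.76 in B and -0.87 and -0.68 in C. Both C arrays were above all A and B arrays, while Pu1 lay above and Pu2 below all 6 fibroblast arrays. C was 2.14-fold above A (A minus C -1.10 ± 0.55) and 1.99-fold above B (B minus C -1.0 ± 0.55). With normexp these differences were -0.62 and -0.56. The SE pools the spread of all 4 groups and here came mostly from Pu1 and Pu2. The SD was 1.29 in pulmonary single cells, against 0.0 in A, 0.02 in B and 0.14 in C. Against pulmonary single cells the differences were -0.87, -0.77 and 0.23 (SE 0.55) in A, B and C. Without Pu1 they were 0.04, 0.14 and 1.14, and without Pu2 they were -1.78, -1.68 and -0.68, so that the direction in each type turned on 1 array.

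**Figure D3:**
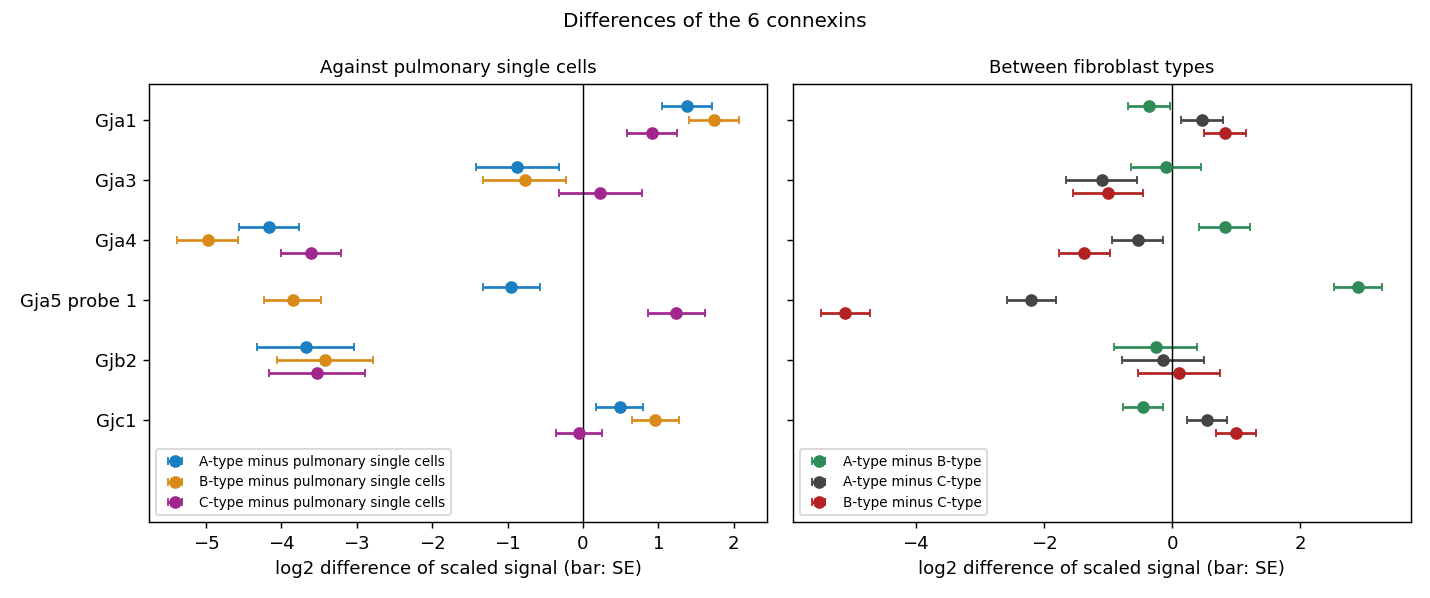
Log2 difference of scaled signal (x axis; point, difference of group means; bar, SE of the fit to 8 arrays) for the 6 connexins, for each fibroblast type against pulmonary single cells (left) and between types (right). Between types, Gja5 spans -5.10 (B minus C) to 2.90 (A minus B), while the other 5 genes lie between -1.37 and 1.0.

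In the fit over all genes, the threshold for a call was an adjusted p (Benjamini-Hochberg) of 0.05. Against pulmonary single cells, 3 of the 6 connexins were called in A (Gja1 higher; Gja4 and Gjb2 lower), against 26.4% of all genes. In B, 4 were called (Gja1 higher; Gja4, Gja5 and Gjb2 lower), against 29.0%, and in C, 3 (Gja5 higher; Gja4 and Gjb2 lower), against 28.4%. Between types, 1 was called in B minus C (Gja5), against 2.41%, 0 in A minus C, against 0.389%, and 0 in A minus B, where no gene was called (limma; unadjusted p under 0.05 for 573 genes, 1 of them a member; in A minus C for 2291 genes, 1 a member). Arrays did not overlap for 5, 5 and 4 members in A, B and C against pulmonary single cells (66.0%, 67.3% and 58.4% of all genes) and for 5, 4 and 5 in A minus B, A minus C and B minus C (43.5%, 53.6% and 54.3%). In 10 other settings of the processing, the call of Gja5 in C held in 5 and that of Gja1 in A in 8. That of Gjb2 in C held in 8 of 9. Gja5 came into the count in 2 of 10 settings in A minus C, 1 in A minus B and 2 in A. Gja1 came into it in 2 of 10 in C, and Gjc1 in 4 of 10 in B. Since the members were picked with these contrasts known, nothing is read from these counts. The median difference of the 6 against that of all genes was -0.91 against 0.11 in A, -2.09 against 0.11 in B and 0.09 against 0.05 in C.

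The counts of members called, from which nothing is read, also moved with single arrays. Without Pu1, Gja3 (1.14) and Gja1 (1.27) came into the count in C and Gja5 left it (0.97), and without Pu2, Gja3 came into it in A (-1.78) and B (-1.68) and Gjc1 in B (1.16). Gja5 also left the count in C without C2 (0.84) or any 1 A or B array (1.24), left that of B minus C without B1 (-4.92) and came into that of A minus C without C1 (-2.60). Gja1 left the count in A without A1 (1.33), A2 (1.44), B1 or B2 (1.38), and in B without B2 (1.60). Gjb2 left it in A without A2 (-3.19) and in B without B1 (-2.64).

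The upstream 250 bases of RefSeq (GRCm38.p6) are shown for Gja5 and Gja4, the 2 arterial connexins, which differed in A and C, and for Gja1, which ran opposite to Gja5. Capitals mark the longest word that any 2 windows of the 5 matched members share on the same strand, the GC box GGGCGG and the AP-1 site TGAGTCA, searched on both strands.
Gja5 promoter: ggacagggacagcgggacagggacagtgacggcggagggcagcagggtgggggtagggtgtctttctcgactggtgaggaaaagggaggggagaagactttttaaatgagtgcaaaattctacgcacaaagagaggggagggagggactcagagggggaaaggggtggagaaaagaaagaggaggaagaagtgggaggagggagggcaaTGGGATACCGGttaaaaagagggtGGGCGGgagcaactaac
Gja4 promoter: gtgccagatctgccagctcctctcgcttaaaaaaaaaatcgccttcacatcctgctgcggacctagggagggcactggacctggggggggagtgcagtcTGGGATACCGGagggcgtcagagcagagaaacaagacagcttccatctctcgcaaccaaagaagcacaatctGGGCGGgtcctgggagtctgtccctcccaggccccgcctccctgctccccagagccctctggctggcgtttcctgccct
Gja1 promoter: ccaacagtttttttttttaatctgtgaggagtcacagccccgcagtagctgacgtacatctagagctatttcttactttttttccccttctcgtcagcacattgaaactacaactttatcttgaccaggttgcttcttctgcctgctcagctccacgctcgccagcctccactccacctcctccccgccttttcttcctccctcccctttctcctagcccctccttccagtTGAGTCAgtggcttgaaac
These windows lie at chr3:97032152-97032401 (plus strand), chr4:127314040-127314289 (minus strand) and chr10:56377050-56377299 (plus strand) of GRCm38.p6. The shared word TGGGATACCGG of 11 bases starts 41 bases upstream of the start in Gja5 and 151 bases upstream in Gja4, and 4 of 32851 RefSeq windows of this length hold it (0.0122%). GGGCGG occurs 1 time each in Gja5 and Gja4 and 2 times in Gjb2, and 32.7% of all windows hold it. TGAGTCA occurs 1 time in Gja1 (4.46% of windows), TATAAA in 1 of 2 windows of Gja3 (12.4%), and AGGTGTGA, a T-box half-site, in none of the members' windows (1.12%). The GC content was 56.4% in Gja5, 61.2% in Gja4, 69.2% in Gjb2 and 62.8% and 76.0% in the windows of Gja3, all above the median of 52.4% over all windows, and below it in Gja1. A match of letters is no more than a description.

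Gja3, Gjb2 and Gjb6 neighbour each other on chromosome 14, with 0 protein-coding genes between them in RefSeq. The neighbours did not share a pattern: Gja3 was well above background on all 6 fibroblast arrays, Gjb2 and Gjb6 on none of them, and all 3 on both Pu arrays.

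Of the 14 connexin genes outside the 6, 8 passed the filter on dim probes, and the 6 others had no group with both arrays above background. Against pulmonary single cells, 4 of the 8 were called in A (1 higher, 3 lower), 3 in B (1 higher, 2 lower) and 2 in C (1 higher, 1 lower); of all genes, 14.7%, 16.1% and 14.7% were called higher and 11.7%, 12.9% and 13.7% lower. Gjc3, a connexin of glia, was lower in A (-1.79 ± 0.37, adjusted p 0.0129 by limma), B (-1.40, 0.0306) and C (-1.25, 0.0456). Gja10, known from retinal neurons, was lower in A (-2.53 ± 0.60, adjusted p 0.0215 by limma) and B (-2.41, 0.0242). Only bounds of 2.35-fold and 2.14-fold can be given for it, since 0 arrays of either type were above background. Gja10 and Gjb6 passed the filter only through pulmonary single cells, where they were brighter. The filter thus fixed in part that they would be lower, and nothing is read from their calls or their part in the counts. Gjb6, the neighbour and partner of Gjb2, was lower in A (-3.03 ± 0.92, adjusted p 0.0493 by limma, at least 2.52-fold), with values of -1.38 in Pu1 and -4.0 in Pu2; without Pu1 the difference was -1.72 and the call was lost.

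These lower calls were close to the threshold. That of Gjb6 held in 1 of 8 fits with 1 array left out, those of Gja10 in 5 of 8 in A (lost without Pu1, A1 or A2: -2.33, -2.54 and -2.51) and in 5 of 8 in B (without Pu1, B1 or B2: -2.21, -2.88 and -1.93). Gjc3 lost its call in A without A2 (-1.52), in B without Pu2 (-1.06), B1 (-1.12), B2 (-1.68), A1 or A2, and in C without any array but Pu1 (-0.91 to -1.31). Of the other settings, 4 of 10 ended the call of Gjc3 in B, 5 of 10 that in C, 5 of 9 that of Gjb6 in A, and 2 of 9 those of Gja10. With normexp Gja10 was at -0.32 in A and -0.25 in B and Gjb6 at -0.60 in A, all 3 without a call. The median of the 8 was -0.54, -0.39 and -0.53 in A, B and C, against 0.11, 0.11 and 0.05 over all genes. Between types 0 of the 8 were called by limma in any comparison.

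Pannexins form related channels that do not usually dock between cells. Of 3 pannexin genes, Panx1 alone passed the filter. It was higher in B than in pulmonary single cells (1.43 ± 0.42, 2.70-fold, adjusted p 0.0419 by limma) and differed by 0.39 in A and -0.23 in C without a call. The call in B was lost without Pu1 (1.31), Pu2 (1.56), B1 (1.69) or B2 (1.18), and in 4 of 10 other settings.

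All 16 listed genes whose products bind, carry or modify connexins were kept. Against pulmonary single cells, 5 were called in A (3 higher, 2 lower), 7 in B (4 higher, 3 lower) and 6 in C (4 higher, 2 lower), of 16 in each, beside the shares of all genes called above. Dbn1, which encodes drebrin, an actin-binding partner of connexin 43, was not well above background on either Pu array (-4.57 and -4.59). Dbn1 passed the filter only through the fibroblast types, which fixed in part that it would be higher there. Nothing is read from its calls against pulmonary single cells. It read -0.96 and -0.72 in A, 0.01 and -0.13 in B and -1.40 and -1.39 in C. It was at least 9.65-fold higher in A (3.74 ± 0.26, adjusted p 0.000163 by limma), at least 16.6-fold in B (4.52, 9.4e-05) and at least 6.56-fold in C (3.18, 0.000317); with normexp the differences were 1.21, 1.74 and 1.04, all 3 still called. Its order of types, B, A, C, was that of Gja1, and B minus C was 1.34 (adjusted p 0.0541 by limma).

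Ccn3, a secreted matricellular protein that binds connexin 43, was higher in A (2.36 ± 0.40, adjusted p 0.00527 by limma), B (3.25, 0.00136) and C (1.57, 0.0255). The call in A was lost without A2 (2.18), and that in C without Pu2 (1.47), C2 (1.06) or any 1 A or B array (1.57), and in 2 of 10 other settings. Cnst, which encodes consortin, a carrier of connexins to the plasma membrane, was called higher in C (1.69 ± 0.28, 3.22-fold, adjusted p 0.00492 by limma; the call was lost in the fit of the 4 compared arrays alone) and differed by 0.86 in A and 0.69 in B without a call. It read 0.13 and 0.49 in pulmonary single cells, 1.22 and 1.13 in A, 1.07 and 0.92 in B and 1.91 and 2.09 in C, so both C arrays were above all others. B minus C was -1.0 (adjusted p 0.139 by limma) and A minus C -0.82 (0.282).

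Zonula occludens proteins anchor connexins to actin. Tjp3, which encodes one of them that is known from epithelia, was lower in all 3 types: by -1.59 ± 0.30 in A (adjusted p 0.00882 by limma), -1.5 in B (0.0107) and -1.01 in C (0.0455). Tjp1, which encodes the main partner of connexin 43 among them, differed by -0.69, -0.86 and -0.30 without a call. Tjp3 lost its call in A without A1 or A2, in B without B1 or B2, and in C without any array but Pu1, where it also lost it in 7 of 10 other settings. Further called partners, named after their values were seen, were Nedd4 (higher in all 3; without A2 or B1 the calls in A and B were lost), Prkca (higher in B; 4 of 10 other settings kept it) and Cav1 (lower in B; lost without B1 or B2). Between types 0 of the 16 were called by limma in any comparison, and over the 25 tested connexin, pannexin and partner genes an unadjusted p under 0.05 came for 2 in A minus B, 3 in A minus C and 7 in B minus C, beside 3.23%, 12.9% and 15.1% of all genes.

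**Figure D4:**
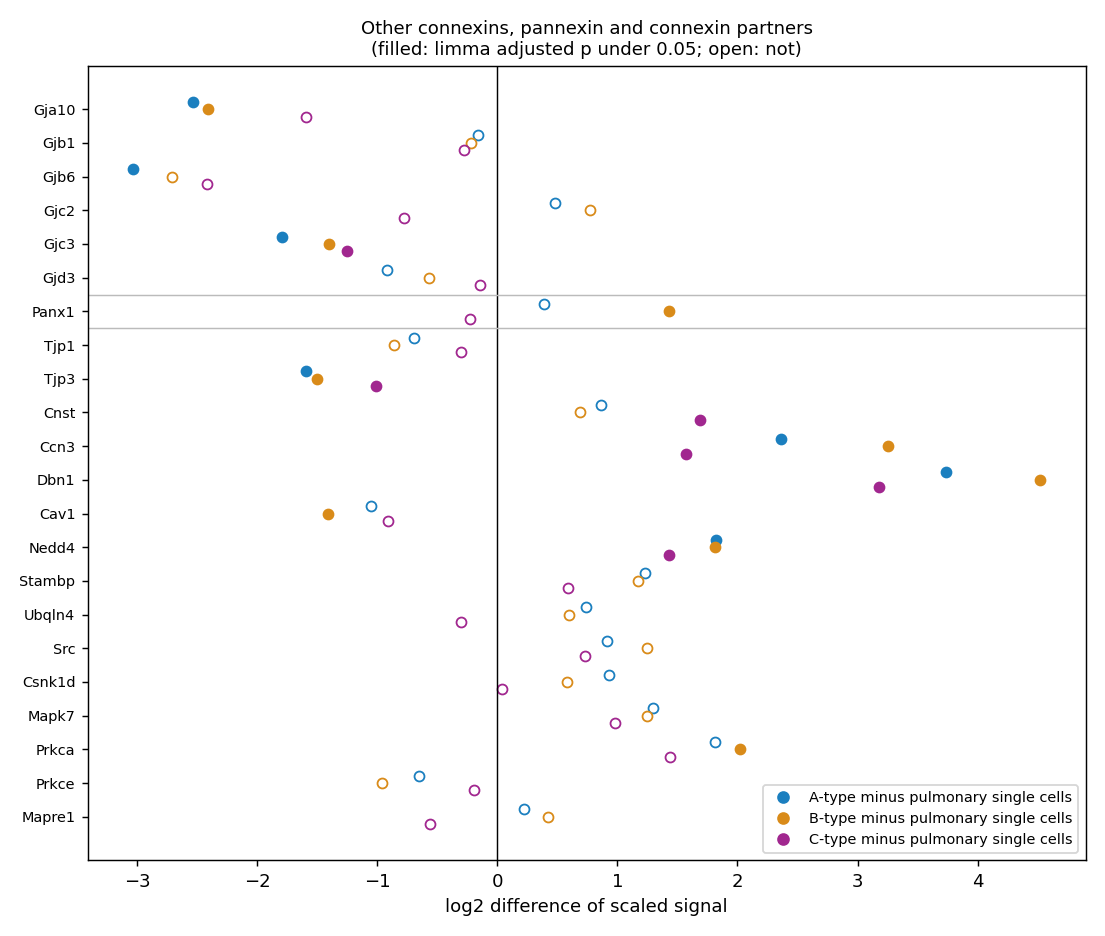
Log2 difference of scaled signal (x axis) between each fibroblast type and pulmonary single cells for 6 other connexins, Panx1 and 15 connexin partners (y axis, separated by grey lines), of the 25 genes tested. A filled point has an adjusted p under 0.05 in the limma fit over all genes. Dbn1, Ccn3 and Nedd4 are higher and Tjp3 and Gjc3 lower in all 3 types. Gja10 and Gjb6 passed the filter on dim probes only through pulmonary single cells, and Dbn1 only through the fibroblast types.

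The genes with the pattern most like each member were those with the highest Pearson r of scaled log2 signal over the 8 arrays, which share slides within groups. For Gja5 these were Macf1 (r = 0.995), a crosslinker of microtubules and actin, Scn3a (0.993), a sodium channel subunit, and Exph5 (0.986), a Rab27 effector. All 3 were highest in C and lowest in B. The group means of Macf1 were 3.59, 3.14, 1.90 and 4.22 in pulmonary single cells, A, B and C, and those of Scn3a 0.14, -0.97, -4.41 and 1.44. Scn3a and Exph5 were well above background on 6 of the 8 arrays. Their B means (-4.41 and -4.81) lay below the lowest signals well above background on B1 (-3.85) and B2 (-3.93), so their size in B is not measured. For Gja1 they were Cyp2j8 (0.991), Kctd20 (0.990) and Gpc6 (0.986), a glypican, which rank B, A, C and pulmonary single cells as Gja1 does. For Gjc1 they were Pgf (0.989), a placental growth factor, Dhx33 (0.976) and Rpf2 (0.972); Pgf had means of 0.18, 1.39, 2.32 and 0.11. Gja3 had Krt222 (0.991), Aff3 (0.990) and Cplx3 (0.989), which were higher on Pu1 than on Pu2 by 1.21, 1.1 and 1.72, beside 1.82 for Gja3; for Aff3 this is the brightest of 3 kept probes.

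For Gja4 and Gjb2 the pulmonary arrays stand apart from all 6 fibroblast arrays, so the correlation mostly restates that gap. The genes were Dnajb13 (0.991), Mgst3 (0.990) and Cd36 (0.989), the fatty acid receptor, for Gja4, and Tc2n (0.993), Fasl (0.985) and Vtn (0.985) for Gjb2. Dnajb13, Tc2n and Vtn were well above background on 2 arrays each. Among the members themselves, Gja4 and Gjb2 correlated at 0.88, Gja1 and Gjc1 at 0.72, Gja5 and Gjc1 at -0.89 and Gja4 and Gja5 at 0.50 over the 8 arrays.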

How the data were processed

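The authors' deposited scanner files hold the background-subtracted intensity of each spot (processed signal, Agilent Feature Extraction 10.10.1.1, per the submitters' processing notes). The authors' deposited value table holds log2 values. They equalled the log2 processed signal less one constant per array, within 0.02 for 100% of 55653 probes, with a median of 4.84, and it served as an alternative. Control spots and outlier spots were left out and spots of one probe averaged. Log2 signals were scaled by the 75th percentile of each array. Kept probes were well above background on both arrays of 1 or more groups, and the brightest of them stood for its gene, named through RefSeq. Testing used limma 3.58.1 in R 4.3.3, one fit of 4 group means to 8 arrays (4 residual and 3.06 prior degrees of freedom), with Benjamini-Hochberg adjustment over 17732 genes, and was tested on simulated data. With 2 samples a group, p-values rest only on the spread between these samples within groups, pooled over all 4 groups and moderated over all genes. The number of arrays limits the precision. Whether samples share mice or a preparation day is not stated in the labels.

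The members, the lists of connexins, partners and markers and the tests were chosen with earlier results of these data known. Named were the 6 members, other connexins and pannexins called in a comparison, at most the 2 highest and 2 lowest called partners in each, and the 3 genes most like each member. Alternatives were normexp with an offset of 50, 4 other scalings, no filter and one needing 4 arrays above background, the mean of a gene's probes, the replicate number as a block, the 4 compared arrays alone, and each array left out. Marker sums are of linear scaled signals, in percent of the mean of Pu1 and Pu2. Some genes of the connexin and partner lists are counted but not reported here by name.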

Additional observations from a re-analysis of the deposited data

Results flagged for a closer look

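Gja5 differed between fibroblast types in its direction against the same pulmonary single cells: both C arrays lay above both Pu arrays, while all A and B arrays lay below them. The A-type minus C-type difference was -2.20 and the B-type minus C-type difference -5.10 on the log2 scale of probe 1. Since Gja5 was picked with these signals known, these differences stand as a description. The calls of Gja5 in the fit over all genes are counted above. They are no independent test of a gene chosen this way, in any setting.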

How the results depend on the processing

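No result turned its direction while called in any setting run. Numbers of genes called changed as follows. With the 4 compared arrays alone, C-type against pulmonary single cells gave 2270 genes in place of 5029, A minus C 0 in place of 69 and B minus C 131 in place of 427; of the 25 other connexin, pannexin and partner genes, 7 in place of 11 were called in B and 3 in place of 8 in C. With normexp, A minus B gave 22 genes and A minus C 175. Without the filter on dim probes, A minus C gave 1 and B minus C 247. With the stricter filter, and with probes of a gene averaged, 1 of the 25 was called in B minus C in place of 0. The shared replicate numbers of the titles, taken as a block, gave 0 genes in A minus C; deviations of same-numbered arrays correlated at -0.08 to 0.06, so the numbers are not shown to pair samples. Leaving out each array in turn, genes called ran from 2155 to 6899 in A, 2339 to 7124 in B and 3686 to 6394 in C against pulmonary single cells, and were 0 in A minus B, 0 to 490 in A minus C and 2 to 927 in B minus C. Of the 25 genes, 3 to 16, 4 to 14 and 5 to 9 were called against pulmonary single cells, 0 in A minus B, 0 to 1 in A minus C and 0 to 1 in B minus C. The cause was not tested. Median scaling moved the median difference of all genes against pulmonary single cells from 0.11, 0.11 and 0.05 to 0.44, 0.46 and 0.45 in A, B and C, and the 75th percentile taken over the probes that were above background on every array moved it to -0.18, -0.21 and -0.26. The percentage of calls that were higher was 55.6, 55.6 and 51.7, with median scaling 68.3, 69.7 and 69.2, and with the latter percentile 41.4, 38.6 and 35.8. Slide as a block could not be fitted against pulmonary single cells and was not run. Signal near background limits Gjb2 and the low values of Gja4.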
